A study of Mus musculus with 6 samples.

Results

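The respiratory chain of the mitochondrial inner membrane is built from subunits encoded in the nucleus and a small set encoded in mitochondrial DNA, and the nuclear genes were followed here in cultured mouse Th17 cells that overexpressed the RNA deaminase ADAR2. Members were the protein-coding genes whose GENCODE vM21 names mark a structural subunit: Nduf genes of the a, b, c, s and v series for complex I, Sdha to Sdhd for complex II, Uqcr genes for complex III, Cox4 to Cox8 genes for complex IV and Atp5 genes for complex V. The rule found 85 genes among the 55450 of the deposited tables, with 37 in complex I, 4 in complex II, 8 in complex III, 18 in complex IV and 18 in complex V. It used names alone and no measured value. It leaves out Ndufab1, Cyc1 and Cycs, and Ndufb1-ps, which the annotation lists as a noncoding gene.

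Naive CD4+ T cells of 2 wild-type mice, aged 8 to 12 weeks, were activated on coated plates with anti-CD3ε (0.25 µg/mL) and anti-CD28 (1 µg/mL), with TGF-β at 0.1 ng/mL and IL-6 at 20 ng/mL. After 24 h all cultures received an MSCV retrovirus, and they were kept for a further 48 h with TGF-β at 0.3 ng/mL and IL-6 at 20 ng/mL, so that cells were collected at 72 h. The retrovirus was the empty vector in the control group, carried wild-type ADAR2 in the ADAR2 WT group, or carried ADAR2 E396A, an enzymatically dead form. Each group has 2 libraries, 1 from each mouse, called donor A and donor B. Every group was thus transduced and polarized, the sources used here do not say that transduced cells were sorted, and no untransduced culture was analysed here. Values for a group are given below as donor A, then donor B.

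Complex I takes electrons from NADH, complex II from succinate, complex III passes them from ubiquinol to cytochrome c, and complex IV hands them to oxygen. Complexes I, III and IV pump protons as they do so, and complex V, the ATP synthase, lets protons flow back to make ATP. Activated T cells are known to build up mitochondria as they grow, and Th17 cells are known to draw on both glycolysis and oxidative phosphorylation while they differentiate.

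Ribosome-depleted RNA gave 16496328 to 21897166 reads assigned to genes per library. Adarb1, which encodes ADAR2, was at 3672 and 3333 normalized counts in the control group, 18422 and 18999 in the ADAR2 WT group and 15644 and 14920 in the ADAR2 E396A group. A normalized count is the number of reads of a gene divided by 1 scaling factor per library. The T cell genes Cd3e, Cd3g and Cd4 and the Th17 genes Il17a, Il17f, Il23r and Ccr6 were present in all 6 libraries. Among markers of other cells, Ms4a1 (B cells) and Ncr1 (NK cells) were at 0 throughout, and the summed B, myeloid and erythroid markers stayed at or under 39.4. The summed CD8 and NK markers were higher, at 148.6 to 177.2, nearly all from Cd8b1 (112 to 158) and Cd8a (9.37 to 65.2). The Th17 sum ranged from 11283 to 55659, with donor B above donor A in each group.

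The promoters of many respiratory genes are known to bind NRF1, ETS family factors such as GABPA, and YY1. Of the 84 distinct member symbols, 68 matched a RefSeq promoter window (GRCm38.p6), 2 of them through an older synonym, with 73 windows of 300 bases that run from 250 before to 50 after a start site. Each window was searched on both strands for GCGCATGCG (NRF1), CCGGAAG (ETS) and AAGATGGCG (YY1). The NRF1 letters overlap their own reverse complement, CGCATGCGC, so 1 stretch can match on both strands. The ETS and YY1 letters can share AAG, but in none of the member windows did the matches of both share bases.

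NRF1 letters stood in 8 of the 73 member windows (11.0%), against 1.75% of all 32851 windows. ETS letters stood in 16 (21.9%, against 8.86%), and YY1 letters in 7 (9.59%, against 1.4%). Any of these matches was found in 26 member windows (35.6%, against 11.4%). The member windows also held a median of 19 CG dinucleotides against 7 over all windows, and how far base composition bears on the shares was not tested. By complex, 11 of 34 windows held a match in complex I, 2 of 3 in complex II, 3 of 5 in complex III, 3 of 13 in complex IV and 7 of 18 in complex V. A match is a description of letters and not of a bound site.

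Stretches of 100 bases upstream of the start, free of annotated exons, are shown for members that carry matches there, 5′ to 3′ on the gene's own strand, with the matched letters in capitals. None of these stretches holds a YY1 match.
Cox6a1 (chr5:115349030-115349129, minus strand, bases 171 to 72 before the start): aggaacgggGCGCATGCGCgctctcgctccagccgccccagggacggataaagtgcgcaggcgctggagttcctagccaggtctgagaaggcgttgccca
Atp5l (chr9:44920893-44920992, minus strand, bases 250 to 151 before the start): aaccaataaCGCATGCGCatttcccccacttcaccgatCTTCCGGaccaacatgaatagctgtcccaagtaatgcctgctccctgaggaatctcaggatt
Uqcr11 (chr10:80406834-80406933, minus strand, bases 112 to 13 before the start): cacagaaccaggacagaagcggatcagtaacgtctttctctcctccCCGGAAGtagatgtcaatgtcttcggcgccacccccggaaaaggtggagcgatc
Uqcrh (chr4:116075072-116075171, minus strand, bases 101 to 2 before the start): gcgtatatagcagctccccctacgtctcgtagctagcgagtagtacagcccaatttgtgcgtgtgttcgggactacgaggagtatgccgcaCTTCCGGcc
Atp5e (chr2:174464150-174464249, minus strand, bases 148 to 49 before the start): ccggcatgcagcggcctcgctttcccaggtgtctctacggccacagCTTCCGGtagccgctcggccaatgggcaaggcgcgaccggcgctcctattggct
Ndufb6 (chr4:40279572-40279671, minus strand, bases 250 to 151 before the start): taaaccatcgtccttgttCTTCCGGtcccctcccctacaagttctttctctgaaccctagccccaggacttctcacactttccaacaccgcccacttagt
In Cox6a1 the NRF1 letters match on both strands, in Atp5l an NRF1 and an ETS match stand within the same stretch, and in the other four the capitals mark ETS letters. Ndufa4, Uqcrfs1 and Cox5b were the members of complexes I, III and IV with the highest ADAR2 WT to empty vector ratio. Their upstream stretches, shown for comparison, hold none of the searched letters, and the rest of each window is not shown.
Ndufa4 (chr6:11907498-11907597, minus strand, bases 147 to 48 before the start): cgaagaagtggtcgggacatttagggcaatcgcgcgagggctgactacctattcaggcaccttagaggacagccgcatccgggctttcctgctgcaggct
Uqcrfs1 (chr13:30545363-30545462, minus strand, bases 146 to 47 before the start): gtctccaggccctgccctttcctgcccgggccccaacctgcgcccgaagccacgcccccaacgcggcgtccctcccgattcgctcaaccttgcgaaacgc
Cox5b (chr1:36691349-36691448, plus strand, bases 138 to 39 before the start): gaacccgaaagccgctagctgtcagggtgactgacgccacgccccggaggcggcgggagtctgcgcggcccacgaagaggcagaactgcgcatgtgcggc
The absence of a match says only that these exact letters are not in the stretch shown.

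In empty-vector cells the subunit mRNAs were abundant. Levels between genes were compared as normalized counts per kilobase of merged exon length. Over the 79 members that passed the filter on low counts, the median was 639 per kilobase, against 77.7 over all 14958 genes tested, with Atp5a1 highest at 4545 and Cox4i2 lowest at 13.5. By complex the medians were 515 per kilobase in complex I, 824 in complex II, 1394 in complex III, 1134 in complex IV and 742 in complex V. All 85 members together took 0.669% and 0.676% of all counted reads in the control group, 0.701% and 0.675% in the ADAR2 WT group, and 0.673% and 0.67% in the ADAR2 E396A group. The highest share was that of ADAR2 WT in donor A, and the other five ran from 0.669% to 0.676%.

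**Figure D1:**
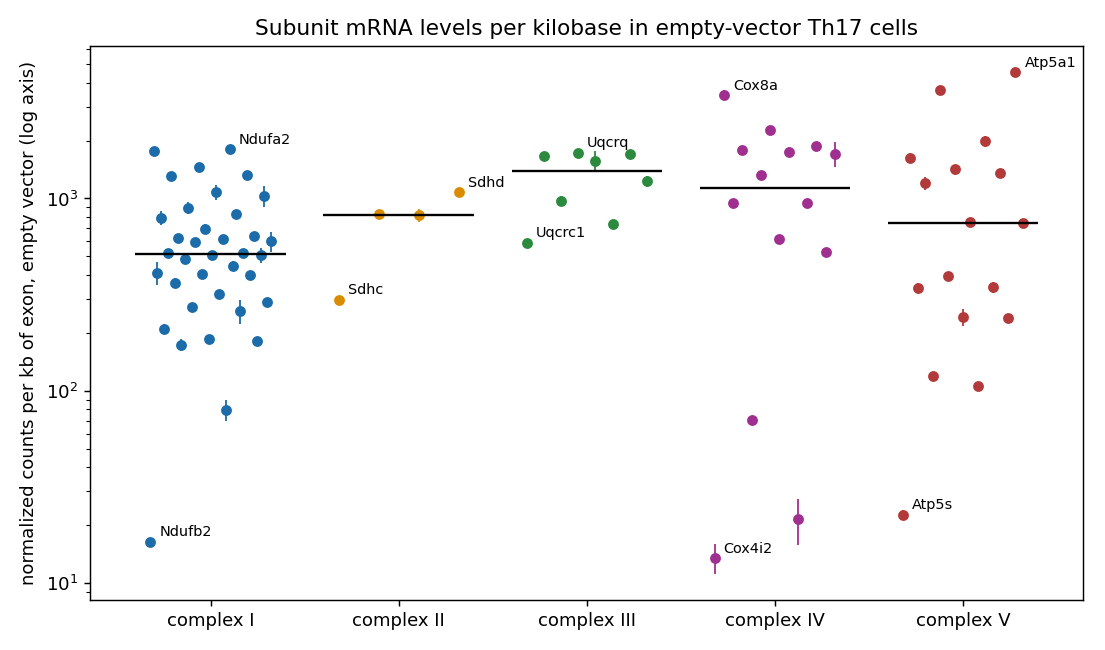
Normalized counts per kilobase of exon (log axis) of the 79 members tested, in empty-vector cells. Points are means of the 2 libraries, thin lines join the 2 donors, black bars are medians per complex, and the highest and lowest member of each complex are named.

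Complex V held 40.1% to 41.1% of the members' counts in each library. Atp5a1 and Atp5b, the α and β subunits that form the catalytic head, made up 21.9% to 23.6% between them. Their counts with empty vector were 14099 and 14397 for Atp5a1 and 15093 and 15964 for Atp5b. The other end of complex V was Atp5s, an accessory factor, at 22.7 per kilobase. Complex I held 25.9% to 26.7% of the counts, complex IV 16.0% to 16.6%, complex III 10.4% to 11.3% and complex II 5.69% to 5.92%. These shares describe mRNA, and protein and respiration were not analysed here.

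Within complex I, Ndufa2, an accessory subunit of the matrix arm, was highest at 1801 per kilobase, and Ndufb2, an accessory subunit of the membrane arm, was lowest at 16.4. Core subunits of the matrix arm, most of which carry the flavin or iron-sulphur clusters, spread between these. Ndufv2 stood at 1455 per kilobase. Ndufs7 stood at 692, Ndufv1 at 520 and Ndufs8 at 403, with Ndufs3 at 274 and Ndufs1 at 186. Ndufv2 was thus the highest of those named, and its counts in the 2 empty-vector libraries differed far less than these subunits did from one another. In complex II, the membrane anchor subunit Sdhd was highest at 1080 per kilobase, the flavoprotein Sdha and the iron-sulphur subunit Sdhb were close to each other at 831 and 817, and the second anchor subunit Sdhc was lowest at 298. In complex III the range ran from 589 for the core protein Uqcrc1 to 1725 for the small subunit Uqcrq. Exon lengths were merged over all annotated transcripts, which lowers the value of a gene with long, little-used exons.

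Several subunits of complex IV exist as alternative isoforms, of which one is used in most tissues and the others are known from muscle, lung or testis. The common forms dominated in each library. Cox4i1 was at 2836 and 2684 counts with empty vector, whereas its lung form Cox4i2 was at 12.5 and 8.77, a ratio per kilobase of 96.7 to 312 over the 6 libraries. Cox6b1 was at 1344 and 1310 against 30.2 and 17.5 for the testis form Cox6b2, a ratio of 69.6 to 126. Cox7a2 was at 870 and 920 against 37.5 and 38.0 for the muscle form Cox7a1, a ratio of 11.5 to 13.9. Of these 3 restricted forms, Cox7a1 was thus the one closest to its common partner.

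The members left out by the filter were nearly all restricted forms. Over the 6 libraries, Cox6a2 had 10 reads and Cox8b 8, both known as muscle forms, while the common forms Cox6a1 and Cox8a stood at 1748 and 3441 per kilobase. Cox7b2 and Cox8c had 0 reads, which allows up to 3 reads in each library. Ndufa4l2, a relative of Ndufa4 known for its induction by hypoxia, had 18 reads. The sixth was a second gene model named Atp5o, also at 0 reads, whose exons overlap those of Donson and of the first Atp5o model.

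The c-ring of complex V is encoded by a set of 3 genes for the same mature protein. Atp5g3 was highest in each library, at 742 per kilobase with empty vector, against 238 for Atp5g2 and 106 for Atp5g1. The ratio of Atp5g3 to Atp5g1 was 6.41 to 7.67 over the libraries, and that of Atp5g3 to Atp5g2 was 2.76 to 4.02. Atp5g3 was also highest by normalized count in all 6 libraries. The order of the other c-ring genes rests on the merged exon lengths, 4.91 kb for Atp5g1 and 1.68 kb for Atp5g2. By normalized count Atp5g1 was above Atp5g2 in each library, at 500 and 540 against 411 and 388 with empty vector.

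The study compared active ADAR2 with empty vector. No member passed at an adjusted p under 0.05 in limma with Benjamini-Hochberg adjustment, where 122 of 14958 genes (0.816%) did. At an unadjusted p under 0.05 there were 12 of 79 members (15.2%), 6 higher and 6 lower, against 14.1% of all genes, which is close to the background. edgeR and DESeq2 also called 0 members, against 0.909% and 1.74% of all genes. They gave 12 and 7 members at an unadjusted p under 0.05, where all genes were not counted for these methods. In the authors' deposited table the lowest adjusted p of a member was 0.31, for Atp5d. The limma fit holds a term for donor, so its p-values rest on the spread left after that term, with 2 libraries a group from 2 mice. In bulk RNA, fewer cells of a type and less RNA per cell cannot be told apart.

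The intervals were narrow for most members. The median log2 fold change of the 79 was 0.009, beside -0.002 over all genes, and single values ran from -0.3 to 0.44. The 95% confidence interval lay within 1.5-fold either way for 75 of 79 members (94.9%), against 58.5% of all genes. The exceptions were Ndufa4, Ndufa5, and the sparsely counted Cox4i2 and Cox6b2. A fold of at least 1.2 was reached by 6 members, 3 higher and 3 lower (7.59%), against 28.9% of all genes. Members are more highly expressed than most genes, and the share was not compared with genes of a like level.

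**Figure D2:**
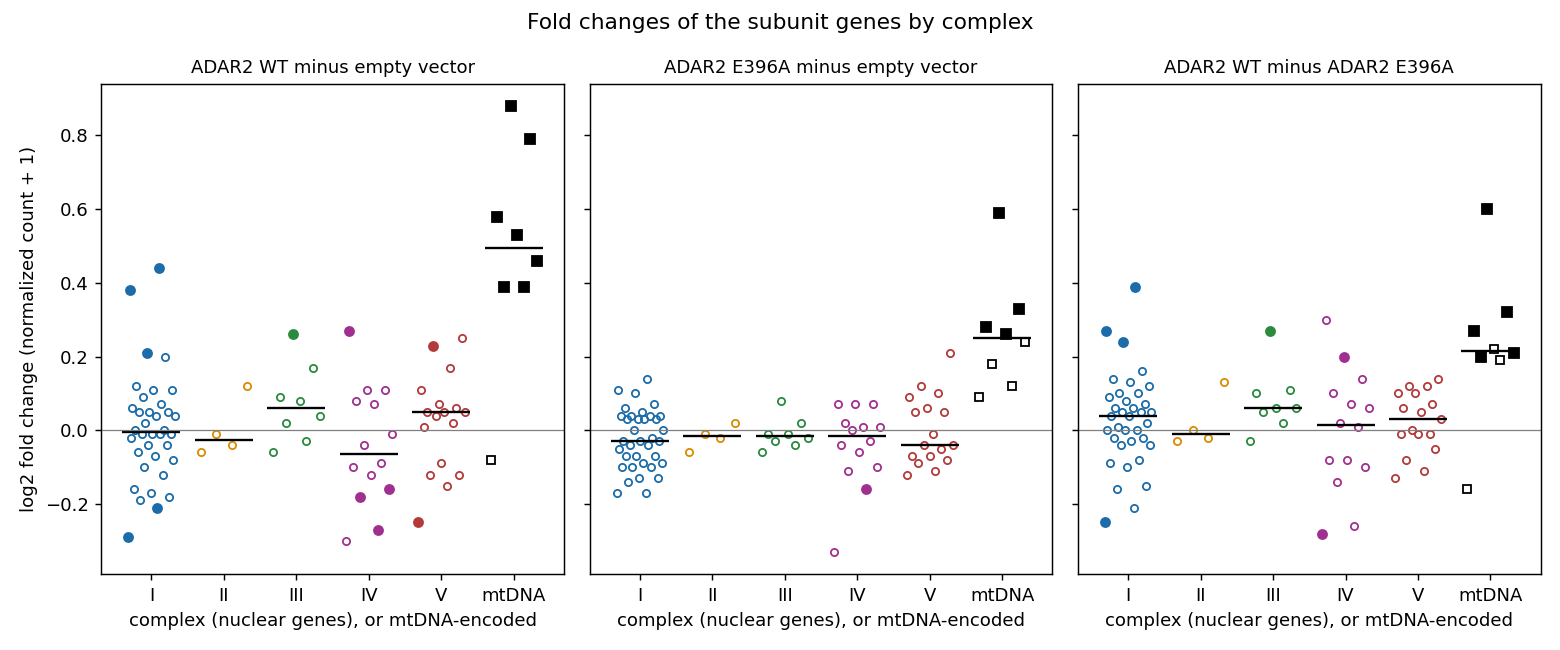
Log2 fold change of each nuclear subunit gene by complex (circles) and of the 8 mitochondrially encoded subunit genes tested (squares), in the 3 comparisons. Filled symbols have an unadjusted limma p under 0.05, black bars are medians, and the nuclear genes lie around 0 in each panel while most squares lie above it.

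In complex I the median was -0.003, with 18 of 36 members above 0. Ndufa4, first found with complex I and since assigned to complex IV (chromosome 6, 11900292 to 11907497, mm10), was at 306 and 409 counts in the control group, 482 and 478 in the ADAR2 WT group, and 357 and 377 in the ADAR2 E396A group. Both ADAR2 WT libraries lay above the other four. Its log2 fold change was 0.44 (SE 0.13, adjusted p 0.179 in limma). Ndufa5, a subunit of the matrix arm (chromosome 6, 24518666 to 24528013), was at 436 and 486, then 642 and 557, then 515 and 475 counts. The ADAR2 WT libraries again were highest, with a log2 fold change of 0.38 (SE 0.11, adjusted p 0.19). Ndufb9, a membrane-arm subunit, was at 526 and 525, then 612 and 606, then 560 and 578 (log2 fold change 0.21, adjusted p 0.332).

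On the other side of complex I, Ndufa7, a matrix-arm accessory subunit, was at 567 and 604 counts in the control group, 511 and 445 in the ADAR2 WT group, and 575 and 526 in the ADAR2 E396A group. The log2 fold change was -0.29 (SE 0.10, adjusted p 0.264), and both ADAR2 WT libraries were below the others. Ndufb11, a membrane-arm subunit, was at 778 and 657, then 638 and 596, then 786 and 687 counts (log2 fold change -0.21, adjusted p 0.321). Its exons overlap those of Rbm10 on the opposite strand over 117 bases (12.9% of its exon length), and since the strand setting of the counting is not given, reads there cannot be assigned to either. The core subunits named above lay between -0.16 for Ndufv2 and 0.12 for Ndufs3.

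In complex II the median was -0.025. Sdha was at 3510 and 3347 counts in the control group, 3793 and 3683 in the ADAR2 WT group, and 3464 and 3367 in the ADAR2 E396A group. The ADAR2 WT libraries were the highest of the 6, with a log2 fold change of 0.12 (SE 0.06, adjusted p 0.405). Sdhb, Sdhc and Sdhd had log2 fold changes of -0.04, -0.06 and -0.01, and for all 4 members the interval lay within 1.5-fold.

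In complex III the median was 0.059, with 6 of 8 members above 0. Uqcrfs1, the Rieske iron-sulphur protein (chromosome 13, 30540308 to 30545362), was at 1862 and 2393 counts in the control group, 2384 and 2664 in the ADAR2 WT group, and 2065 and 2129 in the ADAR2 E396A group. Each ADAR2 WT library was above the empty-vector library of its donor, but the groups overlapped. The log2 fold change was 0.26 (SE 0.09, adjusted p 0.243). Uqcrb, a small subunit beside the ubiquinone-reducing site, was at 1457 and 1444 in the control group and 1729 and 1549 in the ADAR2 WT group (log2 fold change 0.17, adjusted p 0.376), and Uqcrh, the hinge protein, was lowest at -0.06.

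In complex IV the median was -0.066, with 9 of 14 members below 0. Cox5b, a zinc-binding subunit on the matrix side (chromosome 1, 36691449 to 36693681), was at 960 and 982 counts in the control group, 1186 and 1161 in the ADAR2 WT group, and 965 and 1076 in the ADAR2 E396A group. The ADAR2 WT libraries were the highest, with a log2 fold change of 0.27 (SE 0.08, adjusted p 0.197). Cox7a2l, which is known to join complexes III and IV into supercomplexes (chromosome 17, 83501918 to 83517330), was at 2902 and 2145, then 2393 and 1796, then 2576 and 2458. It was lower with ADAR2 WT in each donor, although the groups overlapped, and its log2 fold change was -0.27 (SE 0.10, adjusted p 0.274). The small membrane subunits Cox7c and Cox8a had log2 fold changes of -0.18 and -0.16 (adjusted p 0.35 and 0.354), with both ADAR2 WT libraries under both empty-vector libraries. Cox4i1 and Cox5a, which join the mitochondrially encoded core early in assembly, stood at 0.08 and -0.09. Cox4i2 had the lowest value of the complex, -0.3, at 4.62 to 14.6 counts and with an interval of -1.71 to 1.12.

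In complex V the median was 0.048, with 12 of 17 members above 0. Atp5j, the F6 subunit of the peripheral stalk (chromosome 16, 84827866 to 84835625), was at 2341 and 2375 counts in the control group, 2833 and 2706 in the ADAR2 WT group, and 2632 and 2481 in the ADAR2 E396A group. The groups did not overlap, with ADAR2 WT highest, and the log2 fold change was 0.23 (SE 0.07, adjusted p 0.182). Its exons overlap those of Gabpa, which encodes an ETS factor and is transcribed from the opposite strand, over 397 bases (12.7%). Gabpa itself was at 1390 and 1489, then 1515 and 1566 with ADAR2 WT (log2 fold change 0.10, adjusted p 0.572). Atp5d, the δ subunit of the central stalk (chromosome 10, 80138632 to 80145818), was at 4080 and 3581, then 3272 and 3136, then 3387 and 3650. Both ADAR2 WT libraries were lowest, with a log2 fold change of -0.25 (SE 0.08, adjusted p 0.213).

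Atp5k, the e subunit at the dimer interface, had the highest log2 fold change of complex V at 0.25, with an interval of -0.04 to 0.55. The catalytic subunits Atp5a1 and Atp5b stood at 0.05 and 0.07. The c-ring genes Atp5g1, Atp5g2 and Atp5g3 stood at 0.05, -0.15 and 0.02.

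**Figure D3:**
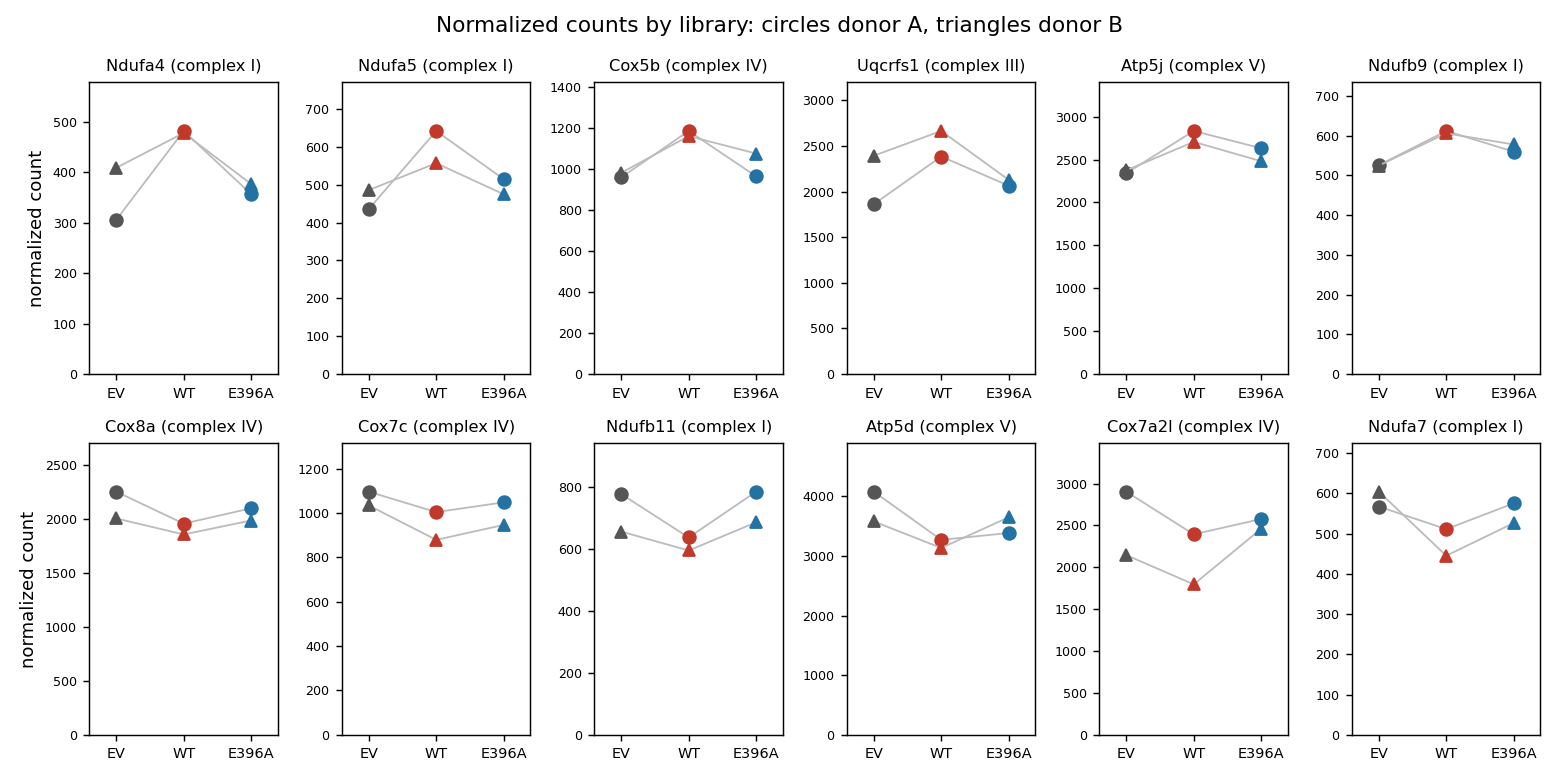
Normalized counts (linear axes from 0) of the 12 members with an unadjusted limma p under 0.05 for ADAR2 WT against empty vector (EV), ordered by fold change. Circles are donor A, triangles donor B and grey lines join the libraries of a donor; the top row lies higher with ADAR2 WT in both donors and the bottom row lower.

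Counted by library, 17 members (21.5%) had both ADAR2 WT libraries above both empty-vector libraries, against 18.7% of all genes, and 14 (17.7%) had both below, against 18.5%. Complex IV gave 4 above and 5 below of 14, complex I 7 above and 8 below of 36, and complex V 4 above and 1 below of 17. Complexes II and III gave 1 above each and 0 below. Summed by complex as normalized counts, the ranges of the ADAR2 WT and empty-vector libraries overlapped for all complexes. As a percent of all counted reads, a different scaling, both ADAR2 WT libraries were above both empty-vector libraries for complexes II, III and V, with 0.0755% and 0.0756% as the nearest values in complex III and 0.276% and 0.277% in complex V.

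**Figure D4:**
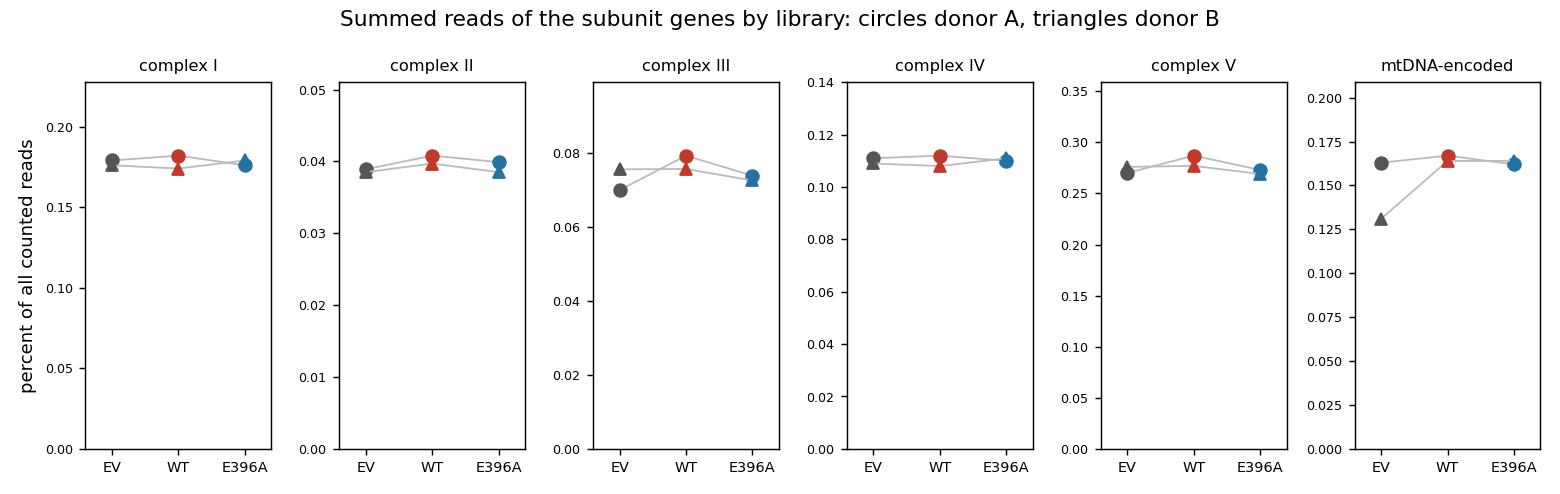
Summed reads of each complex, and of the mitochondrially encoded subunit genes, as a percent of all counted reads in each library (linear axes from 0; EV, empty vector). Circles are donor A and triangles donor B; the sums of the nuclear genes differ little between groups, and the low mitochondrially encoded point is the empty-vector library of donor B at 0.131%.

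The absence of a call depended on which libraries entered the fit. With the 4 libraries of this comparison alone, 7 members passed, with Ndufa4, Ndufa5, Cox5b, Uqcrfs1 and Atp5j higher and Atp5d and Cox7a2l lower. Leaving out 1 ADAR2 E396A library nearly repeats that fit, since the other is matched exactly by its own group term, and it is no separate support. All genes passed at a similar rate with the 4 libraries, 8.86% of members against 8.16% of all genes. With donor B's empty-vector library left out, 4 passed (Ndufa4, Ndufa5 and Uqcrfs1 higher, Atp5d lower), or 5.06% against 5.25%. None passed when donor A's empty-vector library, or either ADAR2 WT library, was left out.

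The enzymatically dead ADAR2 E396A was compared with the same empty-vector libraries. No member passed in limma with Benjamini-Hochberg adjustment, against 0.0134% of all genes, and the lowest adjusted p was 0.999. At an unadjusted p under 0.05 there was 1 of 79 (1.27%, against 3.89% of all genes). It was Cox7b, a small subunit of complex IV, at 2662 and 2843 counts with empty vector and 2406 and 2507 with ADAR2 E396A. The groups did not overlap, and the log2 fold change was -0.16 (SE 0.07, unadjusted p 0.0431 in limma). edgeR and DESeq2 called 0 members at the adjusted threshold, against 0.0201% and 0.0468% of all genes. They gave 0 members at an unadjusted p under 0.05, where all genes were not counted for these methods. In the authors' deposited table no member passed, with a lowest adjusted p of 1.0.

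The median log2 fold change with ADAR2 E396A was -0.022, beside -0.009 over all genes, and values ran from -0.33 for Cox6b2 to 0.21 for Atp5k. By complex the medians were -0.03, -0.011, -0.017, -0.017 and -0.039 from I to V. Within complex I the ends were Ndufa6 at 0.14 and Ndufa1 and Ndufb2, both at -0.17. Complex II ran from -0.06 for Sdhc to 0.02 for Sdhd, and complex III from -0.06 for Uqcrc2 to 0.08 for Uqcrb. In complex IV the highest were Cox4i1, Cox5b and Cox7a1, all at 0.07, and in complex V the lowest was Atp5d at -0.12. The interval lay within 1.5-fold for 74 of 79 members (93.7%), against 62.6% of all genes. Both ADAR2 E396A libraries were above both empty-vector libraries for 5 members (6.33%, against 11.5%) and below for 10 (12.7%, against 11.9%). A fold of at least 1.2 was reached by 1 member, the sparse Cox6b2 (1.27%, against 19.8%).

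ADAR2 WT was compared with the catalytically dead form in the same fit. No member passed in limma with Benjamini-Hochberg adjustment, against 0.0669% of all genes, and the lowest adjusted p was 0.268. edgeR and DESeq2 called 0 members, against 0.0669% and 0.921% of all genes. They gave 7 and 3 members at an unadjusted p under 0.05, where all genes were not counted for these methods. In limma there were 7 members at that level (8.86%, against 12.4%). Ndufa4, Uqcrfs1, Ndufa5, Ndufa12 and Cox5b were higher with ADAR2 WT, with log2 fold changes of 0.39, 0.27, 0.27, 0.24 and 0.20. Cox7a2l and Ndufb11 were lower, at -0.28 and -0.25. Ndufa12, an accessory subunit of the matrix arm of complex I, was at 917 and 800 counts in the ADAR2 WT group and 784 and 668 in the ADAR2 E396A group, and its empty-vector libraries at 871 and 725 lay between them within each donor. This comparison and that with empty vector use the same ADAR2 WT libraries. With donor A's ADAR2 E396A library left out, Uqcrfs1 passed as higher and Cox7a2l as lower, 2.53% of members against 7.42% of all genes.

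Between the constructs the members' median was 0.041, beside 0.004 over all genes, at 0.096 in donor A and -0.003 in donor B. Values ran from -0.28 to 0.39, the interval lay within 1.5-fold for 74 of 79 members, and a fold of at least 1.2 was reached by 5 (6.33%, against 27.8%). Both ADAR2 WT libraries were above both ADAR2 E396A libraries for 20 members (25.3%, against 19.4%) and below for 8 (10.1%, against 17.3%). The 20 included Sdha, Atp5a1 and Atp5b. Complex II ran from -0.03 for Sdhd to 0.13 for Sdha, the lowest of complex III was Uqcrh at -0.03, and the highest of complex IV was the sparse Cox6b2 at 0.30. Complex V ran from -0.13 for Atp5d to 0.14 for Atp5b.

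The members also differed by donor. Of 79 members, 26 (32.9%) were higher in donor A in all 3 groups and 5 (6.33%) in donor B, where all genes gave 22.3% and 21.8%. With ADAR2 WT, 71 of 79 members (89.9%) were lower in donor B, with a median log2 difference of -0.106, against 52.0% of all genes. With empty vector this was 49 members (62.0%, against 49.8% of all genes) and a median of -0.051. With ADAR2 E396A it was 43 members (54.4%, against 49.3% of all genes) and a median of -0.027. Each donor is 1 mouse, so no test was made. The Th17 cytokine gene Il17a moved with donor too, at 2437 and 9279 counts in the control group, 6602 and 17878 in the ADAR2 WT group, and 2616 and 18145 in the ADAR2 E396A group, and the ADAR2 WT library of donor B was the shallowest. Their part in the donor difference was not tested.

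The partner subunits that the same complexes take from mitochondrial DNA gave other values. Of 13 such genes, 8 passed the filter. Of these, 3 rose with ADAR2 WT against empty vector in limma with Benjamini-Hochberg adjustment, where 0.816% of all genes were called. All 3 encode subunits of complex I, as do all of the 8 tested except mt-Cytb and mt-Co1. For mt-Cytb the log2 fold change was 0.39, and it missed the threshold (adjusted p 0.0634 in limma). mt-Nd2 was at 727 and 880 counts in the control group, 1457 and 1479 in the ADAR2 WT group, and 1028 and 913 in the ADAR2 E396A group (log2 fold change 0.88, SE 0.11, adjusted p 0.0193). mt-Nd1 was at 2530 and 2948, then 3814 and 4384, then 3431 and 3124 (0.58, SE 0.09, adjusted p 0.0371). mt-Nd4 was at 1057 and 875, then 1477 and 1309, then 1231 and 1187 (0.53, SE 0.08, adjusted p 0.0371). In all 3 the ADAR2 WT libraries lay highest and the groups did not overlap.

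The median of the 8 was 0.494, beside 0.009 for the nuclear members, and mt-Co1 of complex IV was the exception at -0.08. With ADAR2 E396A against empty vector the median was 0.249 and none passed, with 4 at an unadjusted limma p under 0.05, against 3.89% of all genes. ADAR2 WT against ADAR2 E396A gave a median of 0.215, none passing and 5 at that level, against 12.4% of all genes. The calls for mt-Nd1, mt-Nd2 and mt-Nd4 did not hold when donor A's empty-vector library was left out (adjusted p 0.167, 0.0515 and 0.0527), without either ADAR2 WT library (0.455 to 0.899) or without the donor term (0.583, 0.313 and 0.642). The log2 fold changes stayed at 0.49 to 0.66 for mt-Nd1, 0.7 to 0.89 for mt-Nd2 and 0.53 to 0.61 for mt-Nd4. A left-out library leaves 1 in that group, whose spread is then taken from the other groups. With genes kept only at a mean of at least 50 counts, mt-Nd1 also missed the threshold (adjusted p 0.053). The other 5 genes, mt-Nd4l, mt-Co2, mt-Co3, mt-Atp6 and mt-Atp8, had at most 13.8 counts in any library, although they are transcribed together with the rest. Near-identical nuclear copies of mitochondrial DNA exist in the mouse genome, how the authors counted reads that fit more than 1 place is not given in the sources used here, and the mitochondrially encoded values are uncertain for that reason.

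Among genes that serve the complexes without being part of the rule, 1 passed, in a comparison where 0.816% of all genes did. Pet100, a chaperone needed to assemble complex IV, fell with ADAR2 WT, at 977 and 714 counts in the control group, 652 and 504 in the ADAR2 WT group, and 861 and 681 in the ADAR2 E396A group. The log2 fold change was -0.54 (SE 0.08, adjusted p 0.0371 in limma), with both ADAR2 WT libraries the lowest of the 6 and donor A above donor B in each group. Against ADAR2 E396A the value was -0.42 (adjusted p 0.133 in limma, where 0.0669% of all genes passed). With the 4 libraries of that comparison alone the adjusted p was 0.0416 in limma, where 2.12% of all genes passed. Against empty vector, Pet100 did not pass in every alternative. It no longer passed when donor A's empty-vector library was left out (adjusted p 0.168), or donor A's or donor B's ADAR2 WT library (0.899 and 0.553), or without the donor term (0.769), while the log2 fold change stayed at -0.55 to -0.49. Of 19 complex IV assembly factors tested it was the only one that passed, and the median of the list was -0.035.

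No other assembly factor passed in any comparison, among 17 tested for complex I, 4 for complex II, 6 for complex III and 3 for complex V. The medians with ADAR2 WT against empty vector were -0.03, 0.056, -0.082 and -0.02. None of the 13 genes of coenzyme Q synthesis (median -0.021) and none of the 17 genes of the TCA cycle and pyruvate dehydrogenase (0.028) passed. At an unadjusted limma p under 0.05 these lists gave 0 to 1 gene with ADAR2 WT, and complex IV assembly 2 of 19. Among all genes 14.1% were at that level. Cycs, the mobile carrier cytochrome c, was at 1472 and 1718, then 1926 and 1879, then 1623 and 1685 counts (log2 fold change 0.26, adjusted p 0.215), and the ADAR2 WT libraries were the highest.

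Among 12 transcriptional regulators of respiratory genes, 11 passed the filter and none passed the test. For ADAR2 WT against empty vector, 0 had an unadjusted limma p under 0.05, against 14.1% of all genes. Nrf1 was at 796 and 938 counts in the control group, 952 and 999 in the ADAR2 WT group, and 802 and 838 in the ADAR2 E396A group (log2 fold change 0.18, adjusted p 0.399). Yy1 had a log2 fold change of 0.00 and Tfam, which packages mitochondrial DNA, of -0.07. Ppargc1a, the coactivator known from muscle and brown fat, had at most 1.15 counts in any library, whereas its relatives Pprc1 and Ppargc1b were at 2995 and 2912, and at 107 and 67.2, with empty vector.

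The 85 members lie on 19 chromosomes, with 8 at most on any of them. Neighbouring pairs of tested members within 200 kb include Atp5d and Ndufs7, Ndufs7 and Uqcr11, and Ndufs8 and Ndufv1. In the last pair the log2 fold changes with ADAR2 WT were -0.01 and 0.07. Atp5d stood at -0.25 and its neighbour Ndufs7 at 0.05, and Uqcr11, the neighbour of Ndufs7 on the other side, at 0.08. Processed pseudogenes can take reads from their parent genes, and the 11 with names like members had at most 20.8 counts in any library. Ndufb1-ps was at 743 and 739 in the control group, 800 and 697 in the ADAR2 WT group, and 752 and 738 in the ADAR2 E396A group.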

How the data were processed

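RNA-seq libraries of 6 cultures were analysed from 2 deposited tables of 55450 genes. The submitters' processing notes list the genome build mm10 and the tools STAR 2.6.1a, featureCounts and DESeq2 1.18.1. For annotation, strand setting and multiply mapping reads, nothing is stated (not given in the sources used here). Per the file headers, each table holds the authors' DESeq2 log2 fold change, Wald statistic (a score) and p-values, beside deposited normalized counts (a signal never below 0) of 4 libraries.

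These were whole reads divided by 1 factor per library. All values came out whole within 0.001 of a read, so reads were recovered. The 2 libraries that both tables share were assigned to empty vector, and the rest to the construct named by their table. Donors come from the series' design text. The pairing of libraries by donor was found from the deposited Wald statistics: DESeq2 refitted with this pairing returned them within 3.43e-12 for ADAR2 WT (28601 genes) and 5.72e-05 for ADAR2 E396A (28872 genes), against 13.8 and 6.08 with donors crossed and 6.67 and 2.03 without donors. The labels do not tie donor A to a replicate number.

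Reads were scaled by median-of-ratios factors (0.867 to 1.15) and filtered with filterByExpr, which kept 14958 genes. They were tested as log2(normalized count + 1) with limma 3.58.1 (R 4.3.3, eBayes with trend), with terms for group and donor and Benjamini-Hochberg adjustment at 0.05. The pseudocount of 1 understates the fold change of low genes. A check of the test on simulated counts had no donor difference and larger changes than those of the members, so it does not cover changes of their size. Alternatives were edgeR 4.0.16, DESeq2 1.42.0, TMM factors, other filters and pseudocounts, no donor term, 4 libraries only, and each library left out. Named members were those with the highest and lowest fold change or level per complex, core subunits, isoform groups, untested members, and list genes passing. Others, chiefly the members with an unadjusted p under 0.05, were chosen after their values were seen. The members and lists were chosen with earlier results of these data known. Values of some single genes are not reported here. Positions are from GENCODE vM21, and promoter windows from RefSeq.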

Additional observations from a re-analysis of the deposited data

How the results depend on the processing

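The counts of genes passing, the members' median and the fold changes of 52 genes were recomputed under 15 alternatives. Levels, isoform ratios, promoter shares, per-complex medians and donor counts were not. Where a left-out library leaves 1 in a group, that group is assumed to vary like the others. Where that group is not compared, its lone library is matched exactly by its group term, so the fit nearly repeats that of 4 libraries. The count of members passing was 0 in all 3 comparisons under edgeR, DESeq2, TMM factors, both filters, both pseudocounts and the fit without the donor block. It changed with the libraries fitted: for ADAR2 WT against empty vector, 7 with the 4 libraries alone and 0 to 7 with a library left out. With a library left out it was 0 to 2 for ADAR2 WT against ADAR2 E396A. Of 1986 single-gene fold changes over these alternatives, 17 lost their call, 42 passed newly, and 27 that passed in neither fit changed sign by more than their standard error, all with a library left out, as for Cox4i2 with ADAR2 WT (-0.3, and 0.57 without donor B of that group). No passing value changed sign. With a library left out, the median fold change of the members ran from -0.018 to 0.063 (ADAR2 WT), -0.05 to 0.021 (ADAR2 E396A) and 0.001 to 0.082 (between constructs).

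Without the replicate block (donor pairing), the members' count stayed at 0, and their median was 0.009, -0.022 and 0.041. The mitochondrially encoded genes passing with ADAR2 WT were 3 in the main fit, where 0.816% of all genes passed. They were 0 without the block (0.0134% of all genes) and 2 with a mean of at least 50 counts (0.539%). With DESeq2 they were 5 (1.74%), and with 4 libraries 7 (8.16%). With a library left out they were 0 to 7, 0 to 2 with ADAR2 E396A and 0 to 3 between constructs. Between constructs they were 1 without a filter (0.337% of all genes), 2 with 4 libraries (2.12%) and 1 with DESeq2 (0.921%), against 0 (0.0669%). With 2 donors, calls rest on few degrees of freedom.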
